A study of Mus musculus with 24 samples.

Results

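The Toll-like receptor (TLR) genes Tlr1, Tlr2, Tlr3, Tlr4, Tlr6, Tlr7, Tlr8, Tlr9 and Tlr13 were taken by symbol from a normalised RNA-seq table of mouse macrophages cultured from bone marrow (bone marrow-derived macrophages, BMDMs). They were 9 of the 24273 genes in the table, and all 9 were among the 13901 genes that passed a filter on low values. The BMDMs came from C57BL/6 mice, and all of the 24 libraries came from cells that carried LysM-Cre, a Cre recombinase expressed in myeloid cells from the lysozyme locus Lyz2. LysM-Cre cells were the controls, and FosKO cells also had floxed Fos alleles (Fos fl/fl) that Cre was to delete. The study's text gives the controls a floxed Fos allele and a wild-type allele, whereas the design text names only LysM-Cre, and the values cannot settle which applied. Cells were left untreated (0 h) or received lipopolysaccharide (LPS) at 100 ng/ml for 0.5, 1 or 2 h, with 3 libraries in each of 8 groups. The study's methods call the libraries of a group biological replicates, and neither they nor the labels say whether these came from separate mice or from cultures of the same mice, so p-values measure the spread between these libraries. The question was which LPS-responsive genes depend on FOS, a subunit of the transcription factor AP-1.

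TLRs are membrane receptors that recognise conserved microbial molecules and signal through the adaptors MyD88 and TRIF to NF-kB, MAP kinases and interferon regulatory factors. TLR1, TLR2, TLR4 and TLR6 sit at the surface of macrophages, where TLR2 pairs with TLR1 or TLR6 to bind bacterial lipopeptides, and TLR4 with MD-2 binds LPS, the stimulus used here. TLR3, TLR7, TLR8, TLR9 and TLR13 lie in endosomes and sense nucleic acids, and they reach that compartment with the help of the chaperone UNC93B1.

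The promoters of the members were searched for the letters of motifs named after transcription factors that are active in macrophages. Tlr4 and Tlr7 had no promoter entry and were not searched. RefSeq start sites on GRCm38.p6 gave 9 promoters for the other 7 members (250 bases before to 50 after a start). They were searched on both strands for AP-1 (TGANTCA, a palindrome that reads alike on either strand), the interferon-response core (ISRE, GAAA followed by any 2 bases and GAAA), the PU.1 core (GAGGAAGT) and the NF-kB consensus. Of all 32851 promoters in the same table, 7.81% held the AP-1 letters, 3.44% the ISRE core, 3.2% the PU.1 core and 4.51% the NF-kB consensus. The 250 bases before the start are printed for Tlr2, Tlr3 and Tlr9. Tlr2 had the largest change with LPS and Tlr3 the largest difference between the genotypes. Tlr9 was the member of the 7 searched that held an AP-1 match. Capitals mark a complete match to one of these motifs, and the sequences run 5′ to 3′ on the strand of the gene.
Tlr2, chr3:83841609-83841858, minus strand: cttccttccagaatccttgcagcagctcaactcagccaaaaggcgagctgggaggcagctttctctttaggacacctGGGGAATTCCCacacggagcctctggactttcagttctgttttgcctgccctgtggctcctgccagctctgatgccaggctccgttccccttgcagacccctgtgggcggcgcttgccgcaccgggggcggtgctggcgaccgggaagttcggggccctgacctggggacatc
Tlr3, chr8:45410381-45410630, minus strand: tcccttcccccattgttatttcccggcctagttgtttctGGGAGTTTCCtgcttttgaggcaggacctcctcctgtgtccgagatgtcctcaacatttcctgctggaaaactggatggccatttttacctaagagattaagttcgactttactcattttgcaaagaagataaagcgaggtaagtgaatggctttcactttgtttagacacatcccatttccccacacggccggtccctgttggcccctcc
Tlr9, chr9:106222348-106222597, plus strand: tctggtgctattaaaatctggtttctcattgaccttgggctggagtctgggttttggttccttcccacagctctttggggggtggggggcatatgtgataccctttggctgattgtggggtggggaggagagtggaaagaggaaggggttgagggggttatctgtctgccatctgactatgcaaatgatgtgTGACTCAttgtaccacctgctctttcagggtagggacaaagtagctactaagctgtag
In the Tlr2 sequence the capitals are a run of overlapping NF-kB matches that starts 173 bases before the start site, and a further NF-kB match begins 8 bases before it and crosses it. The Tlr3 capitals are an NF-kB match 211 bases before the start, and the Tlr9 capitals are the AP-1 match 58 bases before the start. Among the other promoters, that of Tlr1 held a PU.1 match 23 bases before a start, and that of Tlr6 held overlapping ISRE matches on the opposite strand 116 and 110 bases before a start. Tlr9 also held a PU.1 match after its start, and the promoters of Tlr8 and Tlr13 held no match to these letters. The 250 bases lay wholly within the GENCODE M21 gene span for Tlr3, the Tlr6 promoter with ISRE matches and a Tlr1 promoter without a match. For Tlr1, Tlr6 and Tlr13 no GENCODE transcript held the 50 bases after the start unbroken, which a splice within them would also give. A match is a description of the letters and not evidence of binding.

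Library facts that touch every comparison are as follows. Values were log2 values normalised by the authors, and a difference of 1 is a 2-fold difference. The study's methods give only a typical yield of strand-specific reads, so the depth of each library is unknown here. The libraries labelled FosKO held more Fos RNA than the controls at 0, 1 and 2 h, by 1.49, 1.64 and 3.29 on the log2 scale, and less at 0.5 h, by -0.77. Fos rose by 2.41 at 0.5 h in LysM-Cre and differed by 0.15 (adjusted p = 0.396) in FosKO. A value for the whole gene cannot separate the deleted part, so it cannot show the deletion that the FosKO label names. The Fos values of the labelled sets did not overlap at any time, and their changes at 0.5 h differed by -2.26. Lyz2, the locus that holds Cre, was at 10.87 to 11.57 in the LysM-Cre libraries and at 16.08 to 16.33 in the FosKO libraries, so the Fos genotype and the Lyz2 level cannot be told apart in any difference between the genotypes. The 18S rRNA gene Rn18s-rs5 was at 16.65 to 17.00 in 5 libraries (replicate 3 of LysM-Cre and 1 of FosKO at 0.5 h, replicates 2 and 3 of LysM-Cre and 1 of FosKO at 1 h) and at 18.57 to 19.39 in the other 19. All 6 macrophage markers passed the filter, with a summed linear level of 127150 to 129910 in LysM-Cre and 127150 to 135380 in FosKO at 0 h. At 2 h the sums were 135390 to 136700 and 141260 to 145630. The markers differed singly within these sums: at 0 h all 6 were called between the genotypes, 3 higher and 3 lower in FosKO, from -0.19 for Itgam to 0.97 for Mertk, and at 2 h 3 were called higher, Mertk by 1.65. Neutrophil markers, of which 2 of 4 passed with Ly6g and Elane at the floor of the table, summed to 48.7 to 58.4 in LysM-Cre and 32.5 to 38.4 in FosKO at 0 h. Their sums at 2 h were 73.7 to 99.5 and 45.8 to 53.3. The 2 tested neutrophil markers were called lower in FosKO at 0, 1 and 2 h, and 1 of them at 0.5 h. Dendritic cell markers, of which 2 of 4 passed, summed to 30.0 to 32.6 and 29.0 to 37.2 at 0 h, and to 110.9 to 122.3 and 85.1 to 87.8 at 2 h. Of 3 fibroblast markers, 2 passed and summed to 16.1 to 19.7 and 10.1 to 15.9 at 0 h, and no B cell, T cell or NK cell marker passed. The part of these in the TLR results was not tested, and fewer cells of a type and less RNA per cell cannot be told apart in bulk RNA.

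Before LPS, FosKO macrophages differed from LysM-Cre macrophages in most TLR genes. Tlr3, Tlr2, Tlr9, Tlr1 and Tlr6 were higher in FosKO, by between 0.96 and 0.20 on the log2 scale, and Tlr8 and Tlr7 were lower. Calls were made in limma at a Benjamini-Hochberg adjusted p under 0.05, taken over all tested genes. At 0 h 7 of 9 members were called against 35.4% of all tested genes, 5 of them higher (19.5% of tested genes) and 2 lower (15.9%). At 0.5 h 6 members were called against 40.9% of tested genes, 5 higher (21.2%) and 1 lower (19.7%). At 1 h 4 were called against 33.9%, 2 higher and 2 lower, where 53.1% of all called genes were higher. At 2 h 4 were called against 44.6%, 3 higher (24.4%) and 1 lower (20.3%). The median difference over the 9 members was 0.20, 0.25, 0.14 and 0.02 at the 4 times, where the median over all tested genes lay between -0.0032 and 0.004. Only Tlr3 and Tlr8 were called at every time. The counts above are of the values as deposited. Quantile normalisation kept the calls at 0 h, added Tlr7 and Tlr13 as lower at 0.5 h and ended that of Tlr4 at 1 h. The 2 h calls then were Tlr3 and Tlr4 higher and Tlr2, Tlr7 and Tlr8 lower, and Tlr13 was not called. The balance of directions at 2 h thus depended on the scaling.

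**Figure D1:**
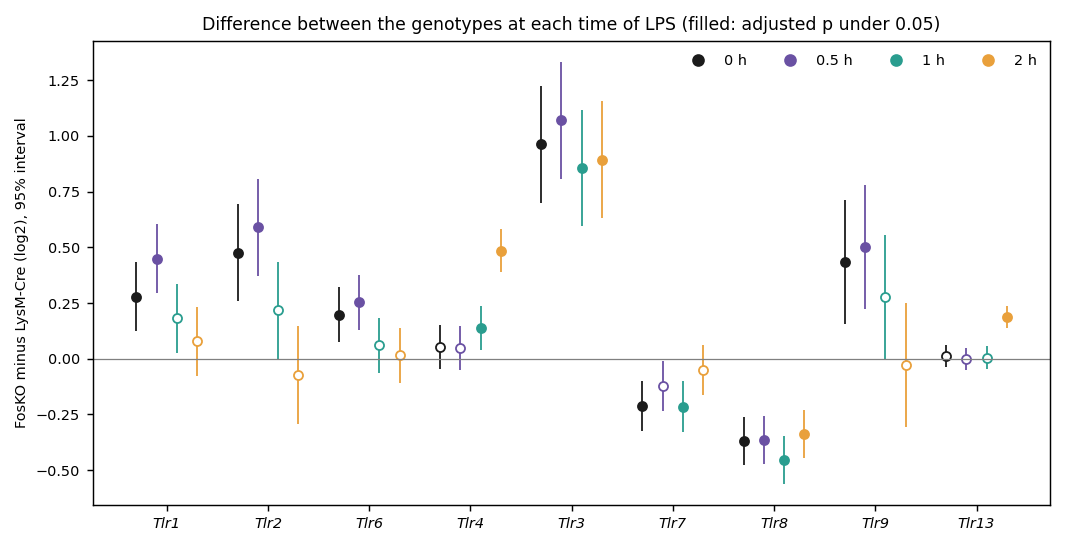
FosKO minus LysM-Cre on the log2 scale (vertical axis) for each of the 9 genes at 0, 0.5, 1 and 2 h of LPS, with 95% intervals from the fit of 3 libraries in each group. Tlr3 lies between 0.86 and 1.07 and Tlr8 between -0.45 and -0.34 at all 4 times, whereas the differences of Tlr1, Tlr2, Tlr6 and Tlr9 are near 0 at 2 h and that of Tlr4 reaches 0.49 there.

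More TLR genes were called after 1 and 2 h of LPS than after 0.5 h. Tlr2, Tlr1 and Tlr6 rose and Tlr4 and Tlr13 fell in both genotypes. In LysM-Cre no member was called at 0.5 h in limma (1 at an unadjusted p under 0.05, Tlr2), where 7.24% of tested genes were called. At 1 h 6 of 9 were called against 35.8% of tested genes, 3 higher (19.2%) and 3 lower (16.5%). At 2 h all 9 were called against 60.8%, 6 higher (30.6%) and 3 lower, where 50.3% of all called genes were higher. In FosKO 1 member, Tlr2, was called higher at 0.5 h, where 5.92% of tested genes were called and 4.45% called higher. At 1 h 6 members were called in FosKO against 32.6%, 3 higher (17.6%) and 3 lower (15.0%), and at 2 h 8 against 62.1%, 5 higher (32.6%) and 3 lower (29.5%). The change over 2 h of LPS differed between the genotypes for 3 members against 15.0% of tested genes, positive for Tlr4 and Tlr13 (7.27% of tested genes) and negative for Tlr2 (7.70%). At 0.5 and 1 h this difference was called for no member and for none at an unadjusted p under 0.05, against 0.115% and 1.22% of tested genes. After 0.5 h of LPS the uncalled changes in LysM-Cre ran from -0.02 for Tlr8 to 0.32 for Tlr2, with 0.04 for Tlr3, 0.0009 for Tlr4, -0.0045 for Tlr7, -0.01 for Tlr9, 0.02 for Tlr1, 0.10 for Tlr6 and 0.03 for Tlr13. In FosKO they ran from -0.01 for Tlr8 to 0.19 for Tlr1, with 0.15 for Tlr3, -0.0036 for Tlr4, 0.16 for Tlr6, 0.08 for Tlr7, 0.06 for Tlr9 and 0.02 for Tlr13. The differences between the genotypes in the change ran from -0.02 (Tlr13) to 0.17 (Tlr1) at 0.5 h and from -0.26 (Tlr2) to 0.0851 (Tlr4) at 1 h. The comparisons share libraries, since the 0 h groups enter both the genotype difference at 0 h and each LPS change.

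**Figure D2:**
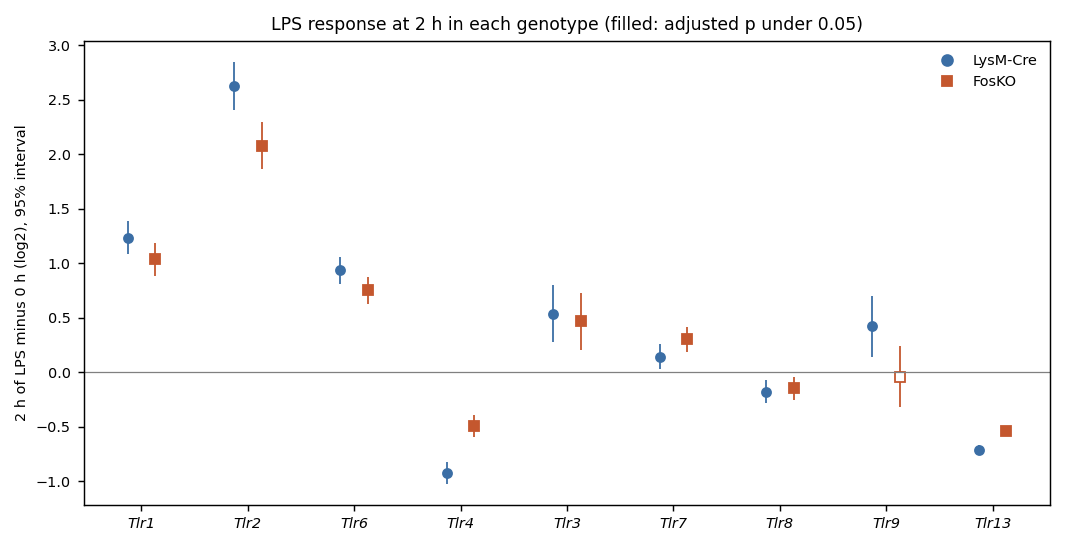
Change from 0 h to 2 h of LPS on the log2 scale (vertical axis) for each of the 9 genes in LysM-Cre and FosKO, with 95% intervals (3 libraries in each group). Tlr2 rises most in both genotypes, by 2.63 in LysM-Cre and 2.08 in FosKO, and Tlr4 and Tlr13 fall in both, by less in FosKO.

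Tlr2 (ENSMUSG00000027995, chr3:83836272-83841767, minus strand, GRCm38) encodes the common partner of the lipopeptide receptors. In untreated LysM-Cre cells its log2 values were 11.05, 11.03 and 11.03, and in FosKO they were 11.26, 11.53 and 11.76. The groups did not overlap, and the FosKO libraries were spread over a wider range. The difference at 0 h was 0.48 (SE 0.10, adjusted p = 0.0012), or 1.39-fold. At 0.5 h LysM-Cre was at 11.31, 11.37 and 11.39 and FosKO at 11.77, 11.81 and 12.26, a difference of 0.59 (adjusted p = 0.000118). Replicate 3 of FosKO was the highest library at both times. At 1 h LysM-Cre was at 12.47, 12.57 and 12.52 and FosKO at 12.63, 12.77 and 12.81, which did not overlap. The difference of 0.22 was not called (95% interval -0.0014 to 0.44, adjusted p = 0.12). It became a call under 3 of 34 alternatives, including a replicate block shared by all groups (adjusted p = 0.0478). At 2 h LysM-Cre reached 13.63, 13.66 and 13.70 and FosKO 13.52, 13.58 and 13.67. The genotypes overlapped there, and the difference was -0.07 (95% interval -0.29 to 0.15, adjusted p = 0.613), which became -0.24 (adjusted p = 0.0387) with quantile normalisation.

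With LPS, Tlr2 in LysM-Cre rose by 1.48 over 1 h and by 2.63 over 2 h (6.18-fold, SE 0.10, adjusted p = 7.36e-15), the largest change of any member. In FosKO it rose by 1.22 at 1 h and by 2.08 at 2 h (4.22-fold, adjusted p = 3.49e-13). The rise to 2 h was smaller in FosKO, with a difference between the changes of -0.55 (95% interval -0.86 to -0.24, adjusted p = 0.0147). It combines the genotype difference of 0.48 at 0 h with that of -0.07 at 2 h. At 0.5 h the change was 0.32 in LysM-Cre (adjusted p = 0.0755) and 0.43 in FosKO (adjusted p = 0.014). The LysM-Cre change was called under 6 of 35 alternatives, including both replicate blocks (adjusted p = 0.0195 and 0.00255). Leaving out replicate 1 of untreated FosKO cells (0.30) or replicate 3 of the 0.5 h group (0.27) ended this FosKO call, each with an adjusted p of 0.105, and over all alternatives its adjusted p ran from 0.000157 to 0.352.

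Tlr1 (chr5:64924679-64933563, minus strand) and Tlr6 (chr5:64952031-64960097, minus strand) encode the alternative partners of TLR2, for triacylated and diacylated lipopeptides. They are neighbouring genes, and 454 of the 3332 windows of 50 bases in the exons of Tlr1 (13.6%) also occurred in those of Tlr6, where they were 12.3%. No other pair of members shared a window of that length. Reads from these stretches could be assigned to either gene, so the separation of Tlr1 and Tlr6 is uncertain to that extent. Tlr1 in untreated cells was at 10.30, 10.19 and 10.16 in LysM-Cre and at 10.39, 10.44 and 10.65 in FosKO, without overlap. The difference was 0.28 (SE 0.074, adjusted p = 0.0056), and it fell to 0.20 (adjusted p = 0.0507, range over the alternatives 0.00134 to 0.0507) without FosKO replicate 3. At 0.5 h Tlr1 was at 10.23, 10.28 and 10.19 in LysM-Cre and at 10.67, 10.51 and 10.87 in FosKO, a difference of 0.45 (adjusted p = 5.18e-05). At 1 and 2 h the differences were 0.18 (95% interval 0.03 to 0.34) and 0.08 (-0.08 to 0.23), and neither was called. That at 1 h was called under 5 of 34 alternatives, including a replicate block shared by all groups (adjusted p = 0.0444). Tlr1 rose with LPS by 0.46 at 1 h and by 1.23 at 2 h in LysM-Cre (2.35-fold), and by 0.36 and 1.03 in FosKO (2.05-fold at 2 h). The difference between the 2 h changes was -0.20 (95% interval -0.42 to 0.02, adjusted p = 0.228).

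Tlr6 was called in the same directions as Tlr1 at 0 and 0.5 h and with LPS at 1 and 2 h. Untreated LysM-Cre libraries were at 8.83, 8.74 and 8.69 and FosKO libraries at 8.87, 9.01 and 8.97, a difference of 0.20 (SE 0.059, adjusted p = 0.0127). The gap between the highest control and the lowest FosKO library was small, and the call was lost without LysM-Cre replicate 3 (0.16, adjusted p = 0.0659) or FosKO replicate 2 (0.17, adjusted p = 0.0647), the lowest adjusted p over the alternatives being 0.00513. At 0.5 h the difference was 0.25 (adjusted p = 0.00159), and at 1 and 2 h it was 0.06 (95% interval -0.06 to 0.18) and 0.02 (-0.11 to 0.14). Tlr6 rose by 0.39 at 1 h and 0.93 at 2 h in LysM-Cre (1.91-fold at 2 h, adjusted p = 1.59e-11) and by 0.25 and 0.75 in FosKO (1.68-fold at 2 h, adjusted p = 5.05e-10). The difference between the 2 h changes was -0.18 (95% interval -0.36 to -0.0075), with an unadjusted p of 0.0418 and an adjusted p of 0.164.

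Tlr4 (chr4:66827584-66930284, plus strand) encodes the LPS receptor itself and fell with LPS in both genotypes. In LysM-Cre it was at 11.53, 11.55 and 11.62 at 0 h, at 11.17, 11.15 and 11.25 at 1 h, and at 10.62, 10.57 and 10.75 at 2 h. In FosKO it was at 11.57, 11.63 and 11.67 at 0 h, at 11.36, 11.33 and 11.29 at 1 h, and at 11.23, 11.11 and 11.05 at 2 h. The genotypes overlapped before LPS and were apart at 2 h, where every FosKO library lay above every LysM-Cre library. The differences at 0 and 0.5 h were 0.05 and 0.05 (95% intervals -0.04 to 0.15 and -0.05 to 0.15), and the difference at 2 h was 0.49 (1.4-fold, SE 0.047, adjusted p = 5.65e-08). At 1 h it was 0.14 (adjusted p = 0.0269). That call was lost under 6 of 34 alternatives (adjusted p from 0.0123 to 0.187), among them leaving out LysM-Cre replicate 1 (0.13, adjusted p = 0.0764) or 2 (0.12, 0.109), or FosKO replicate 1 (0.12, 0.0851) or 2 (0.14, 0.0657), and quantile normalisation (0.0910, 0.136). Tlr4 decreased by 0.38 at 1 h and by 0.92 at 2 h in LysM-Cre (to 0.527 of its level, adjusted p = 4.52e-13), and by 0.30 and 0.49 in FosKO (to 0.711, adjusted p = 1.07e-08), the last being -0.74 with quantile normalisation. The difference between the 2 h changes was 0.43 (95% interval 0.29 to 0.57, adjusted p = 0.000125).

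**Figure D3:**
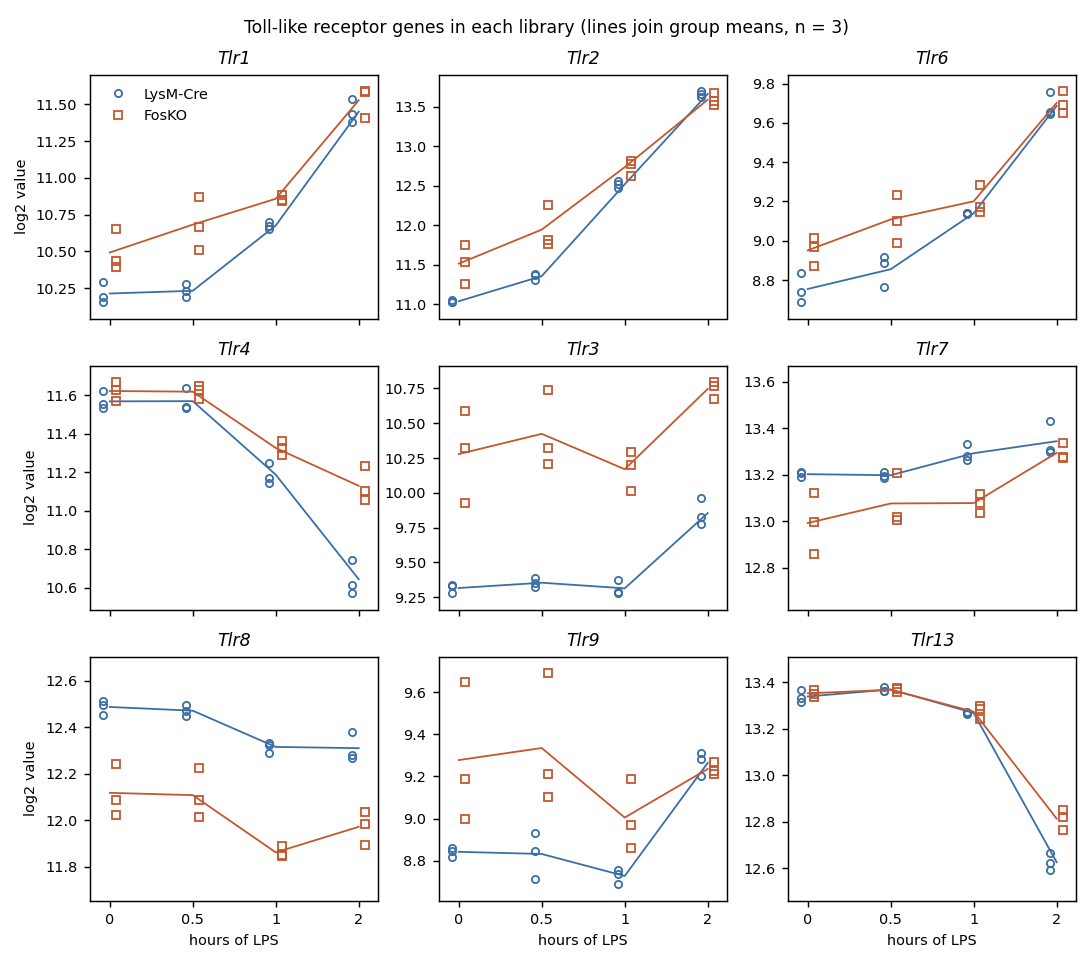
Log2 value (vertical axis, scaled for each gene) of the 9 genes in each of the 24 libraries against hours of LPS, with circles for LysM-Cre, squares for FosKO and lines that join the means of 3 libraries. Tlr3 is higher and Tlr8 lower in every FosKO library than in every LysM-Cre library of the same time, and the FosKO libraries of Tlr2, Tlr3 and Tlr9 are widely spread at 0 and 0.5 h.

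Tlr3 (chr8:45395665-45411080, minus strand) encodes the receptor for double-stranded RNA, which signals through TRIF. The gene overlaps the antisense gene Gm45542 on the other strand, which was at -0.18 to 0.48 in all 24 libraries, near the low end of the table. Untreated LysM-Cre libraries were at 9.33, 9.34 and 9.28, and FosKO libraries at 9.93, 10.32 and 10.59. All FosKO libraries lay above all controls, and they were far more spread than the controls (SD 0.34 against 0.031). The difference was 0.96 (1.95-fold, SE 0.13, adjusted p = 4.79e-06). At 0.5 h LysM-Cre was at 9.39, 9.35 and 9.33 and FosKO at 10.21, 10.32 and 10.74, a difference of 1.07 (2.10-fold, adjusted p = 8.46e-07). At 1 h LysM-Cre was at 9.29, 9.28 and 9.38 and FosKO at 10.02, 10.30 and 10.20, a difference of 0.86 (1.81-fold, adjusted p = 1.88e-05). At 2 h LysM-Cre was at 9.78, 9.82 and 9.96 and FosKO at 10.68, 10.77 and 10.80, a difference of 0.89 (1.86-fold, adjusted p = 7.05e-06). The genotypes did not overlap at any time, and the highest LysM-Cre library at 2 h, 9.96, exceeded the lowest untreated FosKO library.

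Tlr3 changed with LPS at 2 h and was not called earlier. It rose by 0.54 in LysM-Cre (95% interval 0.28 to 0.80, adjusted p = 0.000891) and by 0.47 in FosKO (0.21 to 0.73, adjusted p = 0.00291). The FosKO rise was 0.29 with quantile normalisation (adjusted p = 0.0456) and 0.29 without replicate 1 of untreated FosKO (adjusted p = 0.0305). At 1 h the changes were -0.0023 (95% interval -0.26 to 0.26) and -0.11 (-0.37 to 0.15). The difference between the 2 h changes was -0.07 (95% interval -0.44 to 0.30, adjusted p = 0.856).

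Tlr7 and Tlr8 encode receptors for single-stranded RNA and its breakdown products and are neighbours on the X chromosome (Tlr7 at chrX:167304929-167330558, Tlr8 at chrX:167242696-167264329, both on the minus strand). Both were lower in FosKO before LPS. Tlr8 in untreated cells was at 12.51, 12.50 and 12.45 in LysM-Cre and at 12.02, 12.09 and 12.24 in FosKO. At 2 h it was at 12.28, 12.27 and 12.38 in LysM-Cre and at 12.04, 11.99 and 11.89 in FosKO. The genotypes did not overlap at any of the 4 times, and the differences were -0.37, -0.36, -0.45 and -0.34 at 0, 0.5, 1 and 2 h (SE 0.051, adjusted p = 9.52e-06, 8.09e-06, 7.29e-07 and 1.59e-05), so that FosKO held 0.73 to 0.791 of the control level. With LPS Tlr8 fell by 0.18 at 2 h in LysM-Cre (adjusted p = 0.00503) and by 0.15 in FosKO (adjusted p = 0.0173), where the libraries of 0 h and 2 h overlapped. The FosKO call was lost with libraries centred on their median (-0.09, adjusted p = 0.158) and without FosKO replicate 3 at 0 h (-0.08, 0.146) or at 2 h (-0.11, 0.104). With only the groups compared its value stayed at -0.15 and its adjusted p was 0.0698, and quantile normalisation gave -0.47 in each genotype (adjusted p = 2.53e-09 in LysM-Cre and 2.48e-09 in FosKO). At 1 h the change was -0.17 in LysM-Cre (adjusted p = 0.0117) and -0.26 in FosKO (adjusted p = 0.000473), and quantile normalisation gave -0.35 (adjusted p = 7.27e-07) and -0.41 (adjusted p = 6.16e-08). In the high 18S libraries alone, with 1 LysM-Cre library at 1 h, the LysM-Cre change was -0.15 (adjusted p = 0.206). Between the genotypes the 2 h changes of Tlr8 differed by 0.03 (95% interval -0.12 to 0.18, adjusted p = 0.843).

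Tlr7 was at 13.21, 13.21 and 13.19 in untreated LysM-Cre and at 12.86, 12.996 and 13.12 in untreated FosKO. The groups did not overlap, and the difference was -0.21 (SE 0.054, adjusted p = 0.00433). It was -0.12 at 0.5 h (95% interval -0.23 to -0.0089, adjusted p = 0.0796, or -0.22 with 0.000366 after quantile normalisation), -0.21 at 1 h (adjusted p = 0.00385) and -0.05 at 2 h (-0.16 to 0.06, adjusted p = 0.489), which became -0.19 (adjusted p = 0.0011) with quantile normalisation. At 2 h LysM-Cre was at 13.30, 13.30 and 13.43 and FosKO at 13.34, 13.28 and 13.27. The direction of the LPS change of Tlr7 depended on the scaling. As deposited, Tlr7 was higher at 2 h by 0.14 in LysM-Cre (adjusted p = 0.0282) and by 0.30 in FosKO (adjusted p = 5.41e-05), whereas quantile normalisation gave -0.19 (adjusted p = 0.000665) and -0.11 (adjusted p = 0.0383). Leaving out any untreated LysM-Cre library (0.14, 0.15 and 0.14, with adjusted p = 0.0548, 0.0503 and 0.071) or replicate 3 of the 2 h group (0.0994, adjusted p = 0.155) ended the call in LysM-Cre. At 1 h the Tlr7 changes were 0.0901 in LysM-Cre (adjusted p = 0.213) and 0.0859 in FosKO (adjusted p = 0.249). These became -0.13 in each with quantile normalisation (adjusted p = 0.0184 and 0.0212). The LysM-Cre change was called at 0.0901 with only the groups compared (adjusted p = 0.0198). Between the genotypes the 2 h changes of Tlr7 differed by 0.16 (95% interval 0.0008 to 0.32, adjusted p = 0.182).

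Tlr9 (chr9:106222598-106226883, plus strand) encodes the receptor for unmethylated CpG DNA. Untreated LysM-Cre libraries were at 8.85, 8.86 and 8.82 and FosKO libraries at 8.997, 9.19 and 9.65. The groups did not overlap and FosKO replicate 3 stood well above the others. The difference was 0.44 (SE 0.13, adjusted p = 0.0147), and without that library it was 0.25 (adjusted p = 0.131). With all libraries of only the groups compared, the same difference of 0.44 had an adjusted p of 0.0536, and over the alternatives the adjusted p ran from 0.0021 to 0.131. At 0.5 h LysM-Cre was at 8.72, 8.85 and 8.93 and FosKO at 9.21, 9.10 and 9.69, a difference of 0.50 (adjusted p = 0.0046), or 0.32 (adjusted p = 0.0467) without FosKO replicate 3. At 1 h LysM-Cre was at 8.74, 8.69 and 8.76 and FosKO at 8.86, 8.97 and 9.19, which did not overlap, and the difference of 0.28 was not called (95% interval -0.0012 to 0.56, adjusted p = 0.119, and 0.0373 with only the groups compared). At 2 h LysM-Cre was at 9.31, 9.28 and 9.20 and FosKO at 9.23, 9.27 and 9.21, and the groups overlapped with a difference of -0.03 (95% interval -0.31 to 0.25). With 1 h of LPS the Tlr9 change was -0.11 in LysM-Cre (95% interval -0.39 to 0.16) and -0.27 in FosKO (-0.55 to 0.0057), and neither was called. With only the groups compared the LysM-Cre change was called at the same value (adjusted p = 0.0433). Tlr9 rose by 0.42 at 2 h in LysM-Cre (1.34-fold, adjusted p = 0.00959), and the change in FosKO was -0.04 (95% interval -0.32 to 0.24, adjusted p = 0.807). The difference between these changes was -0.46 (95% interval -0.86 to -0.07), with an unadjusted p of 0.0233 and an adjusted p of 0.112, so it was not called. Its adjusted p was 0.0288 without FosKO replicate 1 at 0 h (-0.60) and 0.0456 without FosKO replicate 3 at 0.5 h (-0.46), whereas without FosKO replicate 3 at 0 h the difference was -0.28 (adjusted p = 0.283), and it ran from 0.0241 to 0.283 over the alternatives.

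Tlr13 (chrX:106143204-106160493, plus strand) encodes an endosomal receptor for bacterial ribosomal RNA, which mice have and humans lack. Before LPS it was at 13.32, 13.33 and 13.37 in LysM-Cre and 13.34, 13.35 and 13.37 in FosKO, and the difference was 0.01 (95% interval -0.04 to 0.06). The groups overlapped at 0, 0.5 and 1 h. At 0.5 and 1 h the differences were -0.0016 (-0.05 to 0.05, or -0.0963 with an adjusted p of 0.00681 after quantile normalisation) and 0.0056 (-0.04 to 0.06). At 2 h LysM-Cre was at 12.67, 12.59 and 12.62 and FosKO at 12.85, 12.82 and 12.77, without overlap, and the difference was 0.19 (1.14-fold, SE 0.024, adjusted p = 2.08e-06). Tlr13 thus fell by 0.71 in LysM-Cre (to 0.61 of its level, adjusted p = 3.88e-16) and by 0.54 in FosKO (to 0.688, adjusted p = 4.03e-14). The difference between the changes was 0.17 (95% interval 0.10 to 0.24, adjusted p = 0.00117). With quantile normalisation the difference at 2 h was 0.04 (adjusted p = 0.245) and the difference between the changes 0.10 (adjusted p = 0.089), so both calls were lost under quantile normalisation, whereas centring on the library median kept them. With the same normalisation the 2 h changes were -1.03 in LysM-Cre and -0.93 in FosKO. The changes at 1 h, -0.07 in LysM-Cre (adjusted p = 0.0248) and -0.08 in FosKO (adjusted p = 0.0145), lost their calls under 7 and 3 of 35 alternatives, among them the omission of the untreated LysM-Cre replicates 2 (-0.07) or 3 (-0.06), of the 1 h LysM-Cre replicates 1 (-0.07) or 2 (-0.07), and of the 1 h FosKO replicate 3 (-0.06). Quantile normalisation made them larger, at -0.32 (adjusted p = 5.75e-09) and -0.31 (adjusted p = 1.09e-08).

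Libraries low in 18S rRNA were present only at 0.5 and 1 h, so the genotype differences were also taken within each set. At 0.5 h the high set had 2 libraries of each genotype and the low set 1 of each, and at 1 h the high set had 2 FosKO and 1 LysM-Cre libraries and the low set 1 and 2. At 0.5 h Tlr3 differed by 1.16 in the high and 0.88 in the low set, Tlr2 by 0.69 and 0.38, and Tlr9 by 0.61 and 0.28. For Tlr1 the high and low sets gave 0.44 and 0.48 and for Tlr6 0.27 and 0.23, and Tlr4 differed by 0.07 and 0.01. Tlr8 was at -0.36 and -0.37, Tlr7 at -0.0986 and -0.17, and Tlr13 at 0.001 and -0.0069. Among the 1 h libraries, the high and low sets gave 0.96 and 0.69 for Tlr3, 0.32 and 0.08 for Tlr2, and 0.34 and 0.14 for Tlr9. For Tlr1 these were 0.17 and 0.18, for Tlr6 0.09 and 0.0069, and for Tlr4 0.14 and 0.16. Tlr8 gave -0.46 in both sets, Tlr7 -0.18 and -0.26, and Tlr13 -0.0066 and 0.03. The sign was the same in both sets for all members but Tlr13, and with the high set alone the 1 h differences of Tlr4 and Tlr7 were 0.14 (adjusted p = 0.187) and -0.18 (adjusted p = 0.155). In that fit the single LysM-Cre library of 1 h is assumed to vary like the libraries of the other groups.

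FosKO libraries varied more among themselves than LysM-Cre libraries for 7 of 9 members at 0 h and 7 of 9 at 0.5 h, as they did for 65.1% and 59.6% of all tested genes. For Tlr2, Tlr3 and Tlr9 at 0 h, the SD of FosKO was 0.25, 0.34 and 0.33 and that of LysM-Cre 0.014, 0.031 and 0.023. In these 3 genes replicate 1 was the lowest and replicate 3 the highest untreated FosKO library. Leaving out a FosKO library of 0 or 0.5 h also added calls, both in comparisons that use it and in comparisons that do not. Without replicate 3 of untreated FosKO, the Tlr1 difference at 1 h (0.18, adjusted p = 0.0395), the Tlr7 difference at 0.5 h (-0.12, 0.0418), the Tlr2 change at 0.5 h in LysM-Cre (0.32, 0.0366), the Tlr1 change at 0.5 h in FosKO (0.27, 0.0336), the Tlr7 change at 1 h in FosKO (0.15, 0.0326) and the Tlr7 difference between the 2 h changes (0.22, 0.0351) were called. Without replicate 1 of untreated FosKO, calls were gained by the Tlr7 difference at 0.5 h (adjusted p = 0.0407), the Tlr2 change at 0.5 h in LysM-Cre (0.0326) and the Tlr9 change at 1 h in FosKO (-0.41, 0.0252). Without replicate 3 of FosKO at 0.5 h they were gained by the differences of Tlr7 at 0.5 h (-0.19, adjusted p = 0.00817) and of Tlr1 and Tlr2 at 1 h (0.0276 and 0.0377), and by the Tlr2 change at 0.5 h in LysM-Cre (0.0134). Without replicate 2 of FosKO at 0.5 h the Tlr1 difference at 1 h (adjusted p = 0.0349) and the Tlr1 change at 0.5 h in FosKO (0.28, 0.0251) were called, and without replicate 1 of that group so was the Tlr6 change (0.22, 0.0369). Other omissions moved these values the opposite way. Without replicate 3 of FosKO at 0.5 h the changes at 0.5 h in FosKO were 0.0947 for Tlr1 (adjusted p = 0.607) and 0.0942 for Tlr6 (0.522). Without replicate 3 of untreated FosKO the Tlr9 change at 1 h was -0.0878 (adjusted p = 0.63), and without replicate 1 the Tlr7 change at 1 h in FosKO was 0.02 (0.821). The Tlr7 difference between the 2 h changes was 0.0839 (adjusted p = 0.433) with quantile normalisation. Over all alternatives the adjusted p ran from 0.00182 to 0.392 for Tlr1 at 1 h, from 0.000366 to 0.314 for Tlr7 at 0.5 h, from 0.0163 to 0.284 for Tlr2 at 1 h and from 0.000158 to 0.203 for the Tlr2 change at 0.5 h in LysM-Cre.

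Levels of different genes were compared after division by the total exon length, as log2 value per kilobase, and as the share of the summed linear level of the 9 genes. The deposited values may be shrunken and the lengths come from GENCODE M21, so these shares are approximate. In untreated LysM-Cre macrophages the X-linked endosomal receptors Tlr13 (29.0% ± 0.58, SD, n = 3), Tlr7 (27.9% ± 0.18) and Tlr8 (19.3% ± 0.34) made up most of the sum. Tlr2 followed with 8.42%, Tlr4 with 6.60%, Tlr1 with 4.29%, Tlr9 with 1.59%, Tlr3 with 1.48% and Tlr6 with 1.40%. Neighbours in this order did not overlap, except Tlr3 and Tlr6. After 2 h of LPS Tlr2 led with 37.7% ± 0.52, then Tlr7 with 22.3%, Tlr13 with 12.8%, Tlr8 with 12.4%, Tlr1 with 7.30%, Tlr4 with 2.52%, Tlr6 with 1.93%, Tlr3 with 1.55% and Tlr9 with 1.55%. There the values of Tlr13 and Tlr8 overlapped, as did those of Tlr3 and Tlr9. In FosKO the shares at 0 h were 29.7% for Tlr13, 24.4% for Tlr7, 15.1% for Tlr8, 11.9% for Tlr2 and 2.94% ± 0.45 for Tlr3, and at 2 h they were 36.1% for Tlr2, 21.6% for Tlr7, 14.7% for Tlr13, 9.86% for Tlr8 and 2.90% ± 0.12 for Tlr3. With the longest coding transcript as the length, Tlr4 stood above Tlr2 and Tlr3 above Tlr9 in untreated LysM-Cre cells.

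**Figure D4:**
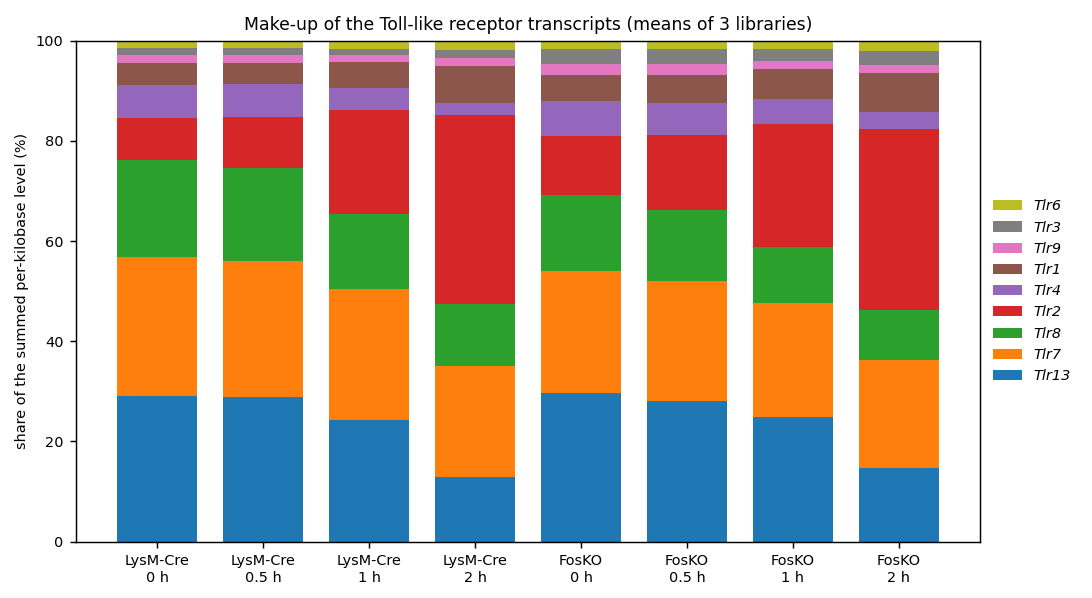
Share of the summed linear level per kilobase of exon (vertical axis, percent) that each of the 9 genes held in each group, as means of 3 libraries. Tlr2 grows from 8.42% to 37.7% between 0 and 2 h in LysM-Cre and from 11.9% to 36.1% in FosKO, while Tlr13 shrinks from 29.0% to 12.8% and from 29.7% to 14.7%.

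The genes whose log2 values were most like each member over the 24 libraries were found by Pearson's r, which is given as a description since the libraries share groups and times. For Tlr2 they were Tnfrsf1b, a TNF receptor (0.995), Cd40, a costimulatory receptor (0.994), and Relb, an NF-kB subunit (0.991). For Tlr3 they were Pyhin1 (0.993), Lrch3 (0.992) and Ddx58, the cytosolic RNA sensor RIG-I (0.991). For Tlr1 they were Vasp (0.990), Rab12 (0.988) and Wtap (0.988), and for Tlr6 the death receptor Fas (0.984), Gna13 (0.984) and Plagl2 (0.982). For Tlr4 they were Ubtd1 (0.972), Tifab (0.961) and Ncoa3 (0.961), and for Tlr13 Rassf3 (0.992), Wipf1 (0.991) and Kif21b (0.987). The likeness was lower for Tlr7 (Galnt7, 0.921), Tlr8 (B3galnt1, 0.940) and Tlr9 (Slfn1, 0.880). No member was among the 3 genes most like another. Between members r ran from -0.898 (Tlr6 and Tlr13) to 0.977 (Tlr1 and Tlr6, which share sequence), and it was 0.905 for Tlr4 and Tlr13.

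The other mouse TLR genes had low values. Tlr5, the flagellin receptor, lay between 1.97 and 2.89 on the log2 scale and passed the filter, and it was called in no comparison between the genotypes or with LPS. Its difference was -0.16 at 0 h (95% interval -0.49 to 0.17) and -0.40 at 1 h (-0.73 to -0.06, adjusted p = 0.0605). Tlr11 lay between 1.74 and 2.52 and Tlr12 between 0.07 and 0.54, and neither was tested.

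Genes that work with the TLRs were described by counts. Of 13 co-receptors and chaperones, 5 were higher and 3 lower in FosKO at 0 h, and 8 were higher and 2 lower at 2 h, with a median difference of 0.17 at 2 h. The shares over all tested genes, the background for all 3 lists, were 19.5% (higher) and 15.9% (lower) before LPS and 24.4% and 20.3% at 2 h. Quantile normalisation gave 3 higher and 5 lower at 0 h, 4 higher and 3 lower at 2 h, and a median of -0.02 at 2 h, and after it Cd36, Cd180, Ly86 and Lbp kept their calls at 2 h. At 2 h Ly86, which encodes MD-1, was higher by 0.57 (adjusted p = 7.67e-06) and its partner Cd180, a TLR4-like receptor, by 0.42 (adjusted p = 5.75e-07). The LPS-binding protein Lbp was higher by 0.50 (adjusted p = 0.0101), and the scavenger receptor Cd36 was lower by -0.56 (adjusted p = 5.39e-07). With 2 h of LPS 3 rose and 2 fell in LysM-Cre (2 and 10 after quantile normalisation), where 60.8% of tested genes were called and 30.6% called higher, led by the LPS co-receptor Cd14, which rose by 1.17 (adjusted p = 7.45e-14) and by 1.53 in FosKO (adjusted p = 8.15e-16), with a difference between the changes of 0.36 (adjusted p = 0.00233). Ly96, which encodes the TLR4 partner MD-2, rose by 0.35 (adjusted p = 0.000338), and the TLR chaperones Cnpy4 and Cnpy3 fell by 0.34 and 0.31 (adjusted p = 1.57e-05 and 6.43e-08).

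Of 17 adaptors and proximal kinases, 11 were higher and 1 lower in FosKO at 0 h (19.5% and 15.9% of tested genes), with a median of 0.12, and 5 were higher and 4 lower at 2 h (24.4% and 20.3%), with a median of 0.03. After quantile normalisation these counts were 6 and 1 at 0 h and 4 and 5 at 2 h. At 2 h Irak2 and Myd88 were higher by 0.45 and 0.37 (adjusted p = 1.57e-05 and 3.55e-05), and Tab1 and Traf3 lower by -0.43 and -0.35 (adjusted p = 1.94e-05 and 3.25e-08). With 2 h of LPS 12 rose and 3 fell in LysM-Cre, and 11 and 5 did after quantile normalisation. Of all tested genes 60.8% were called there and 30.6% called higher. The kinases Irak2 and Ikbke rose by 1.63 and 1.49, the TRIF-related adaptor Ticam2 rose by 1.32, and the TAK1-binding protein Tab1 fell to 0.435 of its level (adjusted p = 1.39e-14, 1.9e-13, 7.29e-12 and 1.54e-12).

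Of 8 inhibitors of TLR signalling, 3 were higher and 1 lower in FosKO at 0 h, where 35.4% of tested genes were called. At 2 h 1 was higher and 3 lower, where 44.6% were called. After quantile normalisation the counts were 2 and 2 at 0 h and 0 and 5 at 2 h. At 2 h Il1rl1, the IL-33 receptor, was lower by -0.83 (adjusted p = 1.51e-05), Sarm1 by -0.37 (adjusted p = 0.0269, with overlapping groups) and the ubiquitin ligase Rnf216 by -0.16 (adjusted p = 0.00128), and the deubiquitinase gene Tnfaip3 was higher by 0.33 (adjusted p = 5.52e-05, and 0.06 with an adjusted p of 0.398 after quantile normalisation). With 2 h of LPS 4 rose and 2 fell in LysM-Cre, against 60.8% of tested genes called, led by Tnfaip3, which rose by 2.96 (adjusted p = 3.43e-20), and Irak3, which rose by 0.49 (adjusted p = 3.77e-08). Il1rl1 fell by 0.43 (adjusted p = 0.00523) and Cyld, a deubiquitinase gene, rose by 0.32 (adjusted p = 4.08e-09).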

How the data were processed

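RNA-seq was carried out on 24 BMDM libraries (8 groups of 3). Reads were mapped and counted by the authors with STAR 2.5.2a and RSEM 1.2.31, and DESeq2 1.16.1 and the build GRCm38 are named in the submitters' processing notes. The deposited values are log2 values, normalised by the authors, from -2.22 to 19.39. The transform is not named. The values resemble a regularised log, in which low genes are pulled towards their mean, so that differences of low genes would be understated. Whole reads could not be recovered, the depth per library is unknown, and no counting interval was computed. The methods name strand-specific reads. Whether counting used the strand of the reads is not given in the sources used here.

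Genes with a linear value (2 to the power of the deposited value) of at least 5 in at least 3 libraries were tested, which kept 13901 of 24273. All libraries entered a limma 3.58.1 fit in R 4.3.3 with 8 group means (16 residual degrees of freedom) and empirical Bayes moderation with a trend. There were 13 comparisons, each with Benjamini-Hochberg adjustment over all tested genes, a threshold of 0.05 and two-sided p-values. An exact permutation test of 3 against 3 libraries cannot go below 0.1 and was not used. The fit was tested on simulated data. Gene models, lengths and coordinates came from GENCODE M21 (GRCm38), and promoters from RefSeq (GRCm38.p6).

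All 9 members were described, the 3 genes with the highest Pearson r were named for each (only the leading one for Tlr7, Tlr8 and Tlr9), and from each pathway list up to 4 called genes with the largest difference at 2 h between genotypes and with LPS in LysM-Cre. The members and lists were chosen with earlier results of these data known. Alternatives were quantile normalisation, centring on the library median, log2 of the linear value plus 1, other filters, no variance trend, only the groups compared, 18S rRNA level as a term or only the high set, replicate blocks and leaving out each library. A length from the longest coding transcript was added after seeing the data.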

Additional observations from a re-analysis of the deposited data

Results flagged for a closer look

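The LPS response at 2 h differed between the genotypes, by the limma interaction term, for 3 of the 9 genes. For Tlr2 the response of FosKO less the control response was -0.55 on the log2 scale (adjusted p = 0.0147), with higher FosKO levels at 0 h and overlapping levels at 2 h. For Tlr4 it was 0.43 (adjusted p = 0.000125), with overlapping levels at 0 h and higher FosKO levels in 3 of 3 libraries at 2 h. For Tlr13 it was 0.17 (adjusted p = 0.00117), with overlapping levels at 0 h and higher FosKO levels in 3 of 3 libraries at 2 h, and quantile normalisation ended this call (0.10, adjusted p = 0.089) and that of the difference at 2 h (0.04, adjusted p = 0.245).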

How the results depend on the processing

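All 117 values of the members over 13 comparisons kept their direction and side of the threshold with log2 of the linear value plus 1, without or with a stricter filter and without the trend, and their side of the threshold, with the direction of called values, was kept by 106 with quantile normalisation, 107 with only the groups compared, 112 with only the high 18S libraries, 114 with centring and 115 with 18S as a term. Quantile normalisation turned the LPS change of Tlr7 to -0.13 at 1 h and -0.19 at 2 h in LysM-Cre and to -0.13 at 1 h and -0.11 at 2 h in FosKO. Among all called genes the share of higher ones was 50.3% as deposited, 40.0% with quantile normalisation and 55.4% with centring for 2 h of LPS in LysM-Cre (52.5%, 39.2% and 60.7% in FosKO), and 54.6%, 43.0% and 62.6% for the genotypes at 2 h (before LPS 55.1%, 45.3% and 57.0%, after 0.5 h 51.9%, 45.6% and 56.8%, after 1 h 53.1%, 42.8% and 55.3%). It was 70.3%, 48.3% and 64.7% for 0.5 h and 53.8%, 37.6% and 61.2% for 1 h of LPS in LysM-Cre, 75.2%, 50.3% and 75.4% and 54.0%, 35.3% and 62.1% in FosKO, and 48.5%, 40.0% and 59.1% when the 2 h responses were compared, while no scaling moved the median of all genes by 0.1. The number of members called between the genotypes at 1 h went from 4 to 7 with only the groups compared and to 2 with only the high 18S libraries, where LysM-Cre has 1 library at that time. For 0.5 h of LPS in LysM-Cre it went from 0 to 1 (Tlr2) with only the groups compared and with either replicate block. In FosKO it went from 1 to 0 with only the groups compared and to 2 with the high 18S libraries or an 18S term. Without each library in turn these counts ran from 3 to 6, 0 to 1 and 0 to 2. Leaving out libraries, the other counts ran from 5 to 7 (genotypes, 0 h), 6 to 7 (0.5 h), 4 to 4 (2 h), 5 to 6 and 8 to 9 (LPS in LysM-Cre, 1 and 2 h), 5 to 7 and 7 to 8 (LPS in FosKO), and 3 to 4 (difference in response, 2 h), where Tlr2, Tlr4 and Tlr13 have the values given above. The other alternatives gave 6 to 7, 6 to 8 and 4 to 5 for the genotypes at 0, 0.5 and 2 h, 4 to 8 and 9 to 9 for LPS in LysM-Cre at 1 and 2 h, 5 to 7 and 7 to 8 in FosKO, and 2 to 4 for the response at 2 h. Of the 117 values, 14 uncalled ones changed sign under quantile normalisation, 7 with the high 18S libraries, 6 with centring and 4 with 18S as a term, as did 57 of 2808 values without a library. Deviations from the group means of libraries with the same replicate number correlated from -0.0008 to 0.71 within FosKO, from -0.25 to 0.41 within LysM-Cre and from -0.53 to 0.31 between genotypes at the same time. All 3 pairs were over 0.1 between FosKO 0 h and 0.5 h (0.13 to 0.27). The same held between FosKO 0.5 h and 1 h (0.33 to 0.71) and in no other pair of groups. A correlation over 0.1 in all 3 pairs was thus seen for part of the FosKO libraries and not over the series. Replicate 1 was the low 18S library of FosKO at both 0.5 and 1 h. Whether pairing or the 18S sets gave this likeness was not tested. The block changed no call for 0.5 h of LPS in FosKO. In 15 of 18 pairs within each genotype the best match among the 3 libraries of the other group had the same number, as a hint from the data. Between genotypes this held for 3 of 12 pairs at the same time and 10 of 36 at other times. The main fit used no replicate number. A replicate block shared by all groups gave 7, 6, 6 and 4 members between the genotypes at the 4 times. The members it added at 1 h were Tlr1 (0.18, adjusted p = 0.0444) and Tlr2 (0.22, 0.0478). A block within each genotype gave 1, 6 and 9 for LPS in LysM-Cre and 1, 7 and 8 in FosKO. The member it added in FosKO at 1 h was Tlr9 (-0.27, adjusted p = 0.0349). This block was not used for the comparisons between genotypes, whose error lies between the replicate numbers. For the difference in response at 2 h the shared block gave 3 and the block within each genotype 4, adding Tlr9 (-0.46, adjusted p = 0.0241). The causes of these changes were not tested, and with unknown depth the precision of low genes is unknown.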
